A study of Mus musculus with 8 samples.

Results

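The subject is the Hist1 cluster of mouse chromosome 13, the largest group of replication-dependent histone genes, followed through the H3K4me3 peaks that fall in it. Members were all peaks of the 4 H3K4me3 peak lists that overlapped either of 2 stretches of build mm9, chromosome 13 from 21800000 to 22140000 (the first part, 340 kb) and from 23610000 to 23862000 (the second part, 252 kb). WT replicate 1 contributed 73 peaks, WT replicate 2 75, dKO replicate 1 76 and dKO replicate 2 68, together 292 of the 74232 peaks in all lists. The peaks of all lists were merged wherever they overlapped by at least 1 bp. Of the 19714 union regions of the genome, 72 overlapped the 2 stretches, 35 the first part and 37 the second. Regions are counted whole, also where they reach beyond a stretch.

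The libraries came from brains of mouse embryos at E12.5, on a mixed strain background. WT embryos were controls that carried no Cre, labelled wild type. The dKO embryos had lost Lats1 and Lats2, kinases of the Hippo pathway that restrain YAP and TAZ, through Nestin-Cre, which is active in neural progenitors and their descendants, so cells outside that lineage kept the genes. Only the dKO group carried Cre, and an effect of Cre cannot be told apart from that of the deletion. Each genotype had 2 H3K4me3 libraries. No label names the animal behind a library, and the spread between replicates may be technical. Whole lists ran to 19486 and 19331 peaks for WT and 18048 and 17367 for dKO, and dKO replicate 2 had the lowest median score (230, against 312 to 338.5 in the others). No read counts accompany the lists, so depth is unknown.

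Replication-dependent histone genes supply the core histones H2A, H2B, H3 and H4 and the linker histone H1 that package new DNA. They are expressed mainly in S phase, have no introns, and end in a stem-loop instead of a poly(A) tail. Many lie head to head, with a shared stretch of promoter between divergent coding sequences. H3K4me3 marks nucleosomes around the starts of active genes, and the H3 genes of the cluster encode the very protein that carries it. At this stage the brain is rich in dividing neural progenitors.

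The peak lists name no genes, and the RefSeq gene table at hand follows GRCm38.p6, so no peak was assigned to a gene. That the 2 stretches hold the histone genes comes from the definition of the cluster, and neither this nor the tissue could be checked against markers. The table was used for names and gene order only. It held 55 genes of chromosome 13 with an older Hist1 symbol, 54 of them protein-coding: 6 for H1, 13 for H2A, 15 for H2B, 9 for H3 and 11 for H4. In gene order they formed 3 blocks. The first, from H2bc13 to H4bc24, held 19 histone genes, with the H1 gene H1f5 among them. The second, from H2ac12 to H2bc11, held 5. Between these blocks lay 39 other genes, of which 31 encode tRNAs and 3 the proteins Zfp184, Pom121l2 and Prss16. The third block, from H4c8 to H2ac1, held 31, with Hfe, an iron-uptake regulator, Trim38 and 4 Slc17a transporter genes interspersed. Peaks in the 2 stretches can therefore belong to tRNA or other genes as well.

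Promoter sequences show what the cluster's start sites look like. Of the 54 coding histone genes, 51 had a promoter in the RefSeq table of GRCm38.p6, running from 250 bases before to 50 bases after the annotated start. The windows below are those of the earliest H2B, H3, H4 and H1 gene in gene order, written 5′ to 3′ on the gene's strand. Capitals mark CCAAT, the site of the factor NF-Y, and TATAAA, the TATA box, on either strand (ATTGG and TTTATA on the other).
H2bc13: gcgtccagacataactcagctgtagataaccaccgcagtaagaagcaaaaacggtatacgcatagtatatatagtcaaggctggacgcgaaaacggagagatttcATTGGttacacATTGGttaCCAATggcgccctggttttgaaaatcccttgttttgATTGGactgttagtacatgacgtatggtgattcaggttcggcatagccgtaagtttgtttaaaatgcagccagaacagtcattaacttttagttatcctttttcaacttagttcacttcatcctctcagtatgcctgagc
H3c10: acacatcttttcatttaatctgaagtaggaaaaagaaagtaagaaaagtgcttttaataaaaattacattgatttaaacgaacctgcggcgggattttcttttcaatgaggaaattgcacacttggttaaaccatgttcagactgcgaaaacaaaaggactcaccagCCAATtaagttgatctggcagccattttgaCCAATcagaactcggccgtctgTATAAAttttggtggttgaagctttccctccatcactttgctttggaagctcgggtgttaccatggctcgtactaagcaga
H4c11: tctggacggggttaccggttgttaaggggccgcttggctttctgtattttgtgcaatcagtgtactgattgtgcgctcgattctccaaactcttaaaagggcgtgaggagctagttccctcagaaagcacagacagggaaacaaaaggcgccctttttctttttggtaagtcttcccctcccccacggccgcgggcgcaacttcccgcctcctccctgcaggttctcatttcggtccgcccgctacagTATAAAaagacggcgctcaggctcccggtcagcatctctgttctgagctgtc
H1f5: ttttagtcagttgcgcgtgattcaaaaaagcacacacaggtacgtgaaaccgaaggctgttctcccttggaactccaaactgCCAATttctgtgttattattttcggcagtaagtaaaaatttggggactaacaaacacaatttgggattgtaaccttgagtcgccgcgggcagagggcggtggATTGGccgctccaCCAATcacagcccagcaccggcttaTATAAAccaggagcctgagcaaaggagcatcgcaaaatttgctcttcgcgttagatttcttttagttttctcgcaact

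H2bc13 had 4 CCAAT matches, on one or the other strand, starting at -145, -134, -126 and -90 relative to the annotated start. H3c10 had CCAAT at -83 and -53 and TATAAA at -31. H1f5 had CCAAT matches at -168, -66 and -53 and TATAAA at -28. In H4c11 the only match was TATAAA, at -2 of the annotated start. The window of H2ac13, the earliest H2A gene, is not printed because it shared 272 bases with that of H2bc13 on the opposite strand. Such overlap was common: 10 pairs of H2A and H2B genes had opposite, overlapping windows, with a median of 265 shared bases, so these windows are not independent. Among the pairs was H2ac24 with H4bc24, which is counted as an H2B gene here despite its symbol. CCAAT occurred in 43 of the 51 cluster promoters (84.3%), against 37.9% of all 27025 promoters of the same length. All 13 H2A, 14 H2B and 7 H3 windows held at least 2 CCAAT matches, whereas 3 of 11 H4 windows held any. TATAAA occurred in 31 of 51 (60.8%, against 14.2% of all). The octamer ATTTGCAT (ATGCAAAT on the other strand), known from H2B promoters, occurred in 10 of 51, 5 for H2A and 5 for H2B (19.6%, against 1.75% of all). These matches describe letters in a window and show no binding.

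The marked sites of the cluster were crowded. Per Mb, the 2 stretches held 123 and 127 peaks in the WT libraries and 128 and 115 in the dKO libraries. The rest of chromosome 13, taken from its earliest to its last peak, held 7.03, 6.79, 6.43 and 6.27 in the same order. The ratio was 18.6-fold on average (log2 4.22 ± 0.078, SD, n = 4 libraries), and it was above 0 on the log2 scale in 4 of 4 libraries. The exact two-sided sign-flip permutation test over 4 libraries gave p = 0.13, the smallest it allows, and the same p for each of the 5 measures compared between the cluster and the rest, also after Benjamini-Hochberg adjustment. The share of bases under peaks was 9.85% and 10.4% in WT and 8.72% and 7.38% in dKO, against 0.61% to 0.74% elsewhere on the chromosome. Genotypes did not overlap in this share inside the cluster. Nor did they elsewhere on the chromosome, with 0.71% and 0.74% in WT and 0.69% and 0.61% in dKO.

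Neighbouring peak centres in the cluster lay a median of 3538 and 3290 bp apart in WT and 3330 and 3349 bp in dKO. Elsewhere on chromosome 13 the medians were 38693 and 43641 bp in WT, beside 46827 and 46922 bp in dKO. Over union regions with a peak in all 4 libraries, the gap to the next such region had a median of 3503 bp in the cluster (52 gaps, from 56 to 72241 bp) and 61994 bp in the rest (611 gaps). Under 1 kb were 14 of the 52 cluster gaps (26.9%) and 11.3% of the others. The shortest, of 56 bp, separated the region from 23852251 to 23853131 from the next, which ran from 23853188 to 23854283.

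Of 414 windows of 100 kb on chromosome 13 with at least 1 region, the window from 23600001 to 23700000 held the most regions, 21, all of them in the cluster. A window outside the cluster, from 78300001 to 78400000, came next with 16. The window from 21800001 to 21900000 followed with 14. Also with 14 was the window from 23500001 to 23600000, outside the cluster and bordering the one with the most regions. The median window held 1 region. The crowding was thus not seen in the histone stretches alone.

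**Figure D1:**
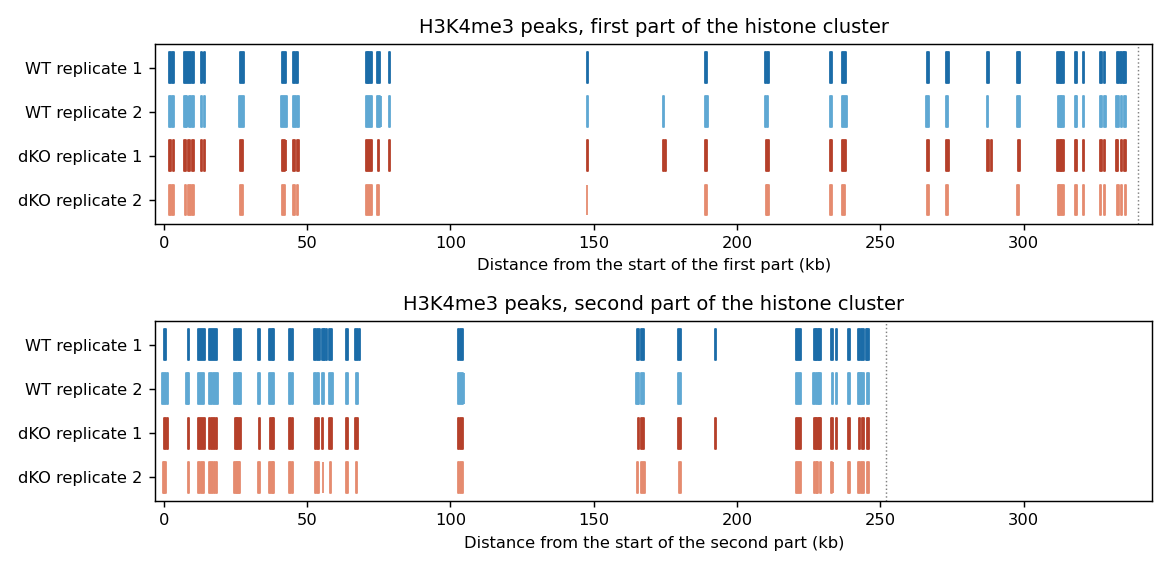
Positions of H3K4me3 peaks in the 2 parts of the histone cluster, by library; the x axis is the distance in kb from the start of each part, each bar is a peak (outlined so that narrow peaks stay visible), and the dotted line is the end of the part. Peaks gather in runs separated by empty stretches, the longest of 68.7 kb. The runs were defined on the 4 lists together, so empty stretches are shared by definition, and each run holds peaks of all 4 libraries.

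Within the cluster the regions fell into 11 runs when gaps over 20 kb were taken as breaks. The longest run, at the start of the second part, spanned 70.0 kb with 21 regions, 16 of them in all 4 libraries. The run at the end of the first part spanned 69.8 kb with 14 regions, and that at its start spanned 45.1 kb with 10. A run of 10 regions in 25.7 kb closed the second part. The longest stretches without any peak between runs were of 68.7 kb in the first part and 60.0 kb in the second.

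Peaks in the cluster were narrower than on the rest of the chromosome. Median widths stood at 678 and 725 bp for WT and at 597.5 and 516.5 bp for dKO, against 869, 938, 934.5 and 845 bp elsewhere, a ratio of 0.697 (log2 -0.52 ± 0.18, SD, n = 4; lower in 4 of 4 libraries, exact sign-flip p = 0.13). Joining peaks that lay within 1000 bp of each other turned this direction (log2 0.16, exact sign-flip p = 0.375). The widest single member had 3039 bp, in WT replicate 1, while the rest of the chromosome reached 7100 to 7566 bp.

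Scores in the cluster ranked low. Ranked within its own list, where 100% is the highest score, the median member stood at 28.4% and 29.9% in the WT lists and at 22.2% and 22.5% in the dKO lists. The rest of chromosome 13 had medians of 45.8%, 47.8%, 48.3% and 48.2%. Between 8.82% and 11.8% of the members lay in the upper 50% of their list, and no member lay in the top 10%, where 9.29% to 10.6% of the other chromosome 13 peaks were. The cluster's median minus that of the rest was -17.4 and -17.9 in WT, beside -26.1 and -25.7 in dKO. The genotypes did not overlap (difference -8.23, exact permutation p = 0.33, the smallest that 2 libraries against 2 allow). The score is the authors', on a scale they do not name. Ranks from lists of unequal length cannot be read as a change of the mark between genotypes.

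**Figure D2:**
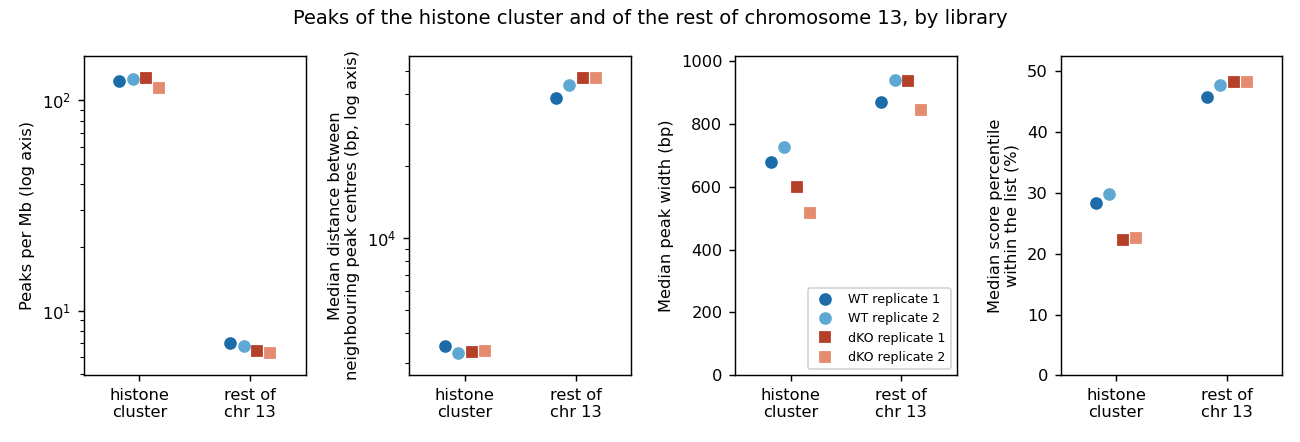
Peaks per Mb and median distance between neighbouring peak centres (log axes), median peak width and median score percentile within the list, for the histone cluster and the rest of chromosome 13; each point is a library. The cluster is denser (115 to 128 against 6.27 to 7.03 peaks per Mb), and its peaks are narrower and rank lower in the 4 libraries.

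Most sites of the cluster were marked in both genotypes. Of its 72 regions, 54 (75.0%) had a peak in all 4 libraries, close to the share over the genome (75.8%). No region had a peak in both WT libraries and neither dKO library, where 3.83% of all regions did. None had the reverse, against 0.137% of all. Another 5 regions had a peak in 3 libraries (6.94%, against 6.52% of all regions), each time missing from dKO replicate 2 (4.71% of all regions had that pattern), 3 were present in 2 libraries (4.17%, against 6.61%), and 10 in a single library (13.9%, against 11.1%; 5 in WT replicate 1, 3 in WT replicate 2, 2 in dKO replicate 1). The 5 missing from dKO replicate 2 were short, from 248 to 741 bp in the libraries that had them. The WT libraries lacked a peak at 7 and 8 of the 72 regions, and the dKO libraries at 8 and 18, where 9.48%, 6.8%, 15.3% and 21.4% of all regions lacked one. Absence means only that no peak passed the caller's threshold.

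The number of peaks in the cluster overlapped between the genotypes: 73 and 75 in WT and 76 and 68 in dKO, means of 74.0 ± 1.41 and 72.0 ± 5.66 (SD, n = 2 each; exact permutation p = 1). With peaks under 500 bp left out the difference in number was -14, without overlap (exact permutation p = 0.33, the smallest that 2 libraries against 2 allow). The bases under all peaks did not overlap. The WT libraries had 58299 and 61535 bp and the dKO libraries 51600 and 43682 bp, so that both dKO values were below both WT values. The means were 59917 ± 2288 and 47641 ± 5599 bp, a change of -20.5% in dKO (exact permutation p = 0.33, the smallest that 2 libraries against 2 allow; 0.556 after adjustment over the 5 genotype measures). Elsewhere on chromosome 13 the bases under peaks changed by -10.6% and the number of peaks by -8.15% in dKO, also without overlap. Divided by the rest of the chromosome, the cluster's bases still differed by log2 -0.17 (-3.83 and -3.81 in WT, -3.96 and -4.03 in dKO), again without overlap and at the smallest p of the test, 0.33. This value was -0.096 with peaks within 1000 bp merged and -0.38 with peaks under 500 bp left out.

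Median peak width followed the bases. The cluster's medians of 678 and 725 bp in WT against 597.5 and 516.5 bp in dKO made a difference of -144.5 bp, or -20.6% (exact permutation p = 0.33), while the rest of the chromosome differed by -1.52%, with overlapping genotypes. The ratio of the cluster's median width to that of the rest differed by -0.31 in dKO on the log2 scale (exact permutation p = 0.33). Without dKO replicate 2 the difference was -104 bp. It was -379 bp with peaks within 1000 bp merged and -47.8 bp with peaks under 500 bp left out. Merged peaks are other units than single ones. The change elsewhere on the chromosome is not at hand for either setting, so -379 bp cannot be read as a stronger narrowing. Peaks under 500 bp made up 28.8% and 26.7% of the members in WT and 43.4% and 47.1% in dKO, against 22.8% to 26.4% elsewhere on the chromosome in the 4 libraries. Both parts showed the same sizes: bases under peaks changed by -20.2% in the first part and by -20.7% in the second (exact permutation p = 0.33 each).

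Region by region, no cluster site passed the test for a change in width. The test was limma on the log2 bases under peaks of the 14943 regions seen in every library, centred on each library's median, with Benjamini-Hochberg adjustment over all of them. Among the histone sites, 54 in all, it called 0 wider and 0 narrower at adjusted p under 0.05, where 0.00669% of all regions were called wider and 0% narrower. The lowest adjusted p in the cluster was 0.321. At unadjusted p under 0.05, 9 cluster regions were narrower (16.7%, against 4.85% of all regions) and 3 wider (5.56%, against 2.82%).

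The cluster's changes were shifted to narrower as a list. Their median centred log2 change was -0.13 (quartiles -0.41 and 0.02), beside 0.02 over all regions and 0.04 over the 614 of the rest of chromosome 13. Below 0 were 37 of 54 (68.5%), against 44.6% of all regions; without centring the shares were 92.6% and 80.0%. Uncentred, both dKO widths lay below both WT widths in 35 of 54 (64.8%), where 39.1% of all regions did so, and above in 3 (5.56%, against 4.17%). After centring these counts were 19 narrower (35.2%, against 16.3%) and 4 wider (7.41%, against 23.7%). No test applies to these counts, since neighbouring regions of the same libraries are not replicates.

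How peaks are joined bears on this shift. With peaks within 1000 bp merged first, 39 cluster regions remained in all 4 libraries, their median change was 0.015 beside 0.031 over all regions, and 19 of them (48.7%) were below 0, against 43.2% of all. Each of the other alternatives kept the median below 0 (-0.27 to -0.08). Splitting was also commoner in the cluster: of its 54 regions, 9 and 10 held more than 1 peak in WT replicates 1 and 2 and 12 and 13 in dKO replicates 1 and 2. These are 16.7%, 18.5%, 22.2% and 24.1%, against 9.78%, 5.8%, 8.15% and 11.4% of all regions.

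The shift was also set beside score rank and width. Of the 54 cluster regions, 41 were in the lowest of 4 equal classes of all regions by mean score percentile, up to 38.0%. In that class the median change was -0.23 in the cluster and -0.085 in the 3695 other regions, with 78.0% and 62.6% of them below 0. In the next class the 10 cluster regions had a median of 0.038, beside 0.013 in the others. By 4 equal classes of all regions in mean width, narrowest first, the cluster had 27, 13, 6 and 8 regions. Their median changes were -0.22, -0.14, -0.18 and 0.0075, beside -0.055, 0.013, 0.040 and 0.052 in the other regions. The part of score rank, of width and of the weaker dKO replicate 2 list in the cluster's shift was not tested. Without dKO replicate 2 the cluster median stayed at -0.12, and without dKO replicate 1 at -0.13.

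**Figure D3:**
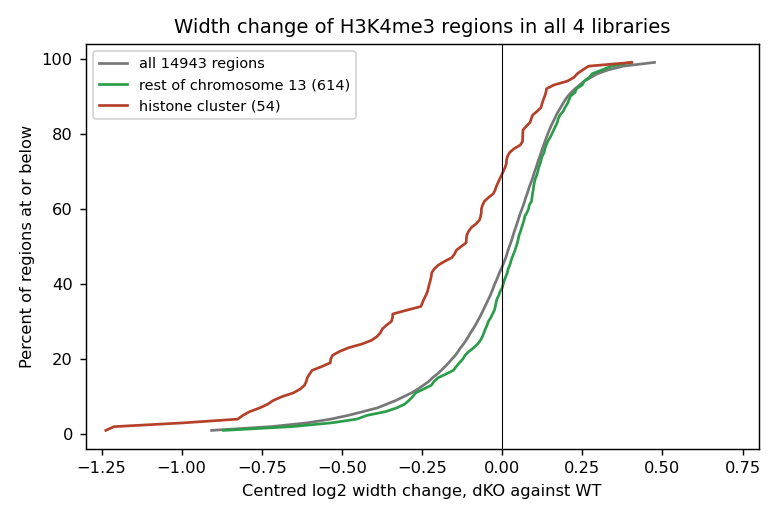
Cumulative distribution, from the 1st to the 99th percentile, of the centred log2 width change (dKO against WT) over regions with a peak in all 4 libraries, for all 14943 regions, the 614 of the rest of chromosome 13 and the 54 of the histone cluster. The cluster's curve lies to the left over most of its length, with a median of -0.13 beside 0.02 and 0.04.

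Where a region was a single peak in every library, both borders could be followed. Among 31 such cluster regions the left border lay a median of 67.5 bp and the right border 78 bp further inward in dKO than in WT. Over all 11942 single-peak regions these medians were 32.5 and 34 bp. Both borders were further inward in 18 of the 31 (58.1%, against 52.4% of all), and both further outward in 1 (3.23%, against 7.79%).

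The 4 regions with the largest change to narrower included 3 of the second part. The region from 23662326 to 23663147 had 682 and 703 bp in WT, beside 249 and 284 bp in dKO, as a single peak in each library. Its means of 692.5 ± 14.8 and 266.5 ± 24.7 bp (SD, n = 2 each) differed 2.6-fold (log2 -1.24, SE 0.23, limma adjusted p = 0.321). The genotypes were far apart and each pair of replicates close. The region from 23665240 to 23665754, further on in the same run, had 504 and 509 bp in WT, beside 241 and 289 bp in dKO (log2 -0.80, SE 0.26, limma adjusted p = 0.597). Its score was the lowest in median rank of the 54, at 6.68%.

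Between these 2 regions, the one from 23663275 to 23664457 had 1183 and 646 bp in WT, beside 517 and 456 bp in dKO. Short peaks of 244 and 225 bp just beyond them were seen in WT replicate 1 alone. With peaks within 1000 bp merged, these regions and the next, from 23667574 to 23668853, became a single region with a log2 change of -0.92 (limma adjusted p = 0.582). They were joined to that next region through the short peaks of WT replicate 1 alone, so the value rests in part on that library.

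The region from 23774784 to 23775860 had 720 and 893 bp in WT, beside 264 and 361 bp in dKO, means of 806.5 ± 122 and 312.5 ± 68.6 bp (SD, n = 2 each; log2 -1.24, SE 0.26, limma adjusted p = 0.401). Its neighbour, 471 bp away from 23776332 to 23777727, measured 1377 and 1336 bp in WT, beside 1323 and 1301 bp in dKO. Merged with it the change was -0.095. In the first part, the region from 22135040 to 22135909 had 825 and 870 bp in WT, beside 651 and 287 bp in dKO (log2 -0.83, SE 0.34, limma adjusted p = 0.649). Here dKO replicate 2 set the size: the change was -0.30 without it and -1.36 without dKO replicate 1, and merged with its neighbours it turned to 0.12.

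On the wider side the changes were smaller. The region from 22009872 to 22011110 had 771 and 741 bp in WT, beside 1122 and 902 bp in dKO, means of 756.0 ± 21.2 and 1012.0 ± 156 bp (SD, n = 2 each; log2 0.55, SE 0.15, limma adjusted p = 0.510). It was called as 2 peaks in 3 libraries and as a single one in dKO replicate 1. With peaks within 1000 bp merged its change was 0.096. The region from 22111792 to 22114279 had 2061 and 2043 bp in WT, beside 2247 and 2243 bp in dKO, 2 peaks in every library (log2 0.27, SE 0.086, limma adjusted p = 0.586). At the border of the second part, the region from 23608602 to 23610857 had 1601 and 1807 bp in WT, beside 1815 and 1818 bp in dKO. It is counted whole, with peaks outside the stretch that are not members. Its member peaks had 438 and 1341 bp in WT replicates 1 and 2. In dKO they had 702 bp in replicate 1, and 355 and 733 bp in replicate 2. On member peaks alone the genotypes overlapped, yet the counts of wider regions given above include this region. The region from 22066143 to 22066939 had 679 and 755 bp in WT, beside 782 and 727 bp in dKO, so its uncentred genotypes overlapped. Without centring the changes of the last 3 regions were 0.13, 0.095 and 0.075. With peaks under 500 bp left out, that from 22111792 was 0.15 and that from 23608602 was 0.66.

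**Figure D4:**
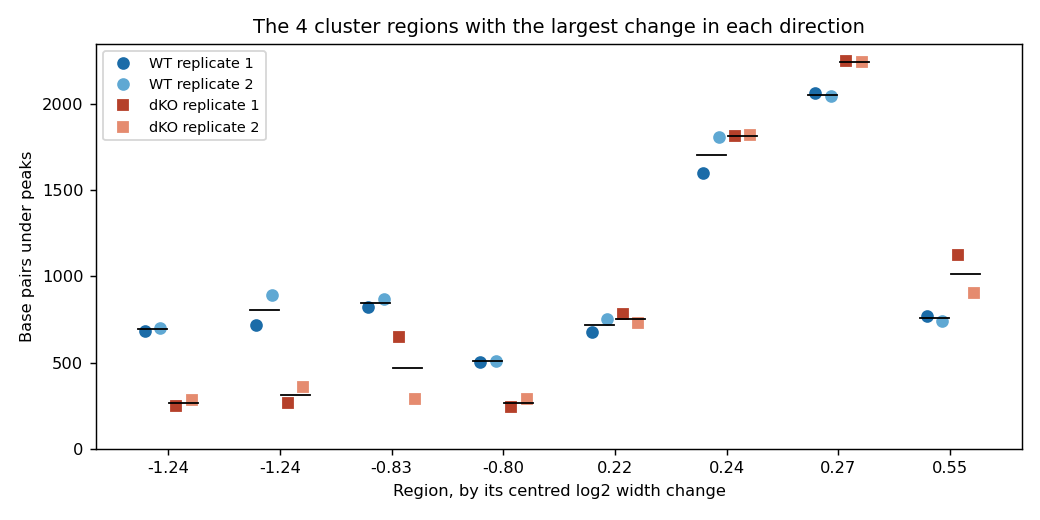
Base pairs under peaks in each library for the 4 cluster regions with the largest change in each direction, in order of their centred log2 change (x axis); points are libraries and black lines genotype means. The regions were picked for their change, so the distance between the groups is in part set by the choice. On the narrower side both dKO libraries lie below both WT libraries in each of the 4 regions, as in 39.1% of all regions. On the wider side the groups lie closer.

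Among the widest sites of the cluster none passed the test. The region from 23625590 to 23628751 covered 3039 and 2855 bp in WT, beside 2572 and 2374 bp in dKO (log2 -0.11, SE 0.084, limma adjusted p = 0.774). It was a single peak in WT replicate 1, 2 peaks in WT replicate 2 and 3 in each dKO library. Its change was -0.25 without centring, -0.59 once peaks under 500 bp were dropped, and 0.076 after merging within 1000 bp. Its neighbour from 23621737 to 23624337 covered 2589 and 2389 bp in WT, beside 2369 and 1989 bp in dKO. The last of the 4 widest, beside the region from 22111792 given above, ran from 21870517 to 21872652, with 1835 and 2053 bp in WT, beside 1882 and 1799 bp in dKO, where the genotypes overlapped.

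The narrowest sites with a peak in all 4 libraries were short throughout. The region from 21947538 to 21947876, alone between gaps of 68.7 and 26.2 kb, had 310 and 325 bp in WT, beside 327 and 258 bp in dKO. The region from 23618385 to 23618876 had 467 and 357 bp in WT, beside 319 and 327 bp in dKO, and that from 22120629 to 22121204 had 576 and 325 bp and 312 and 277 bp. The region from 23654615 to 23655145 had 429 and 531 bp in WT, beside 268 and 298 bp in dKO (log2 -0.61, limma adjusted p = 0.653). With peaks within 1000 bp merged, the change was -0.10 there and -0.89 at 23618385, where it was -0.20 before. At 23618385 the merge took in a peak of 428 bp, from 23617828 to 23618255, seen in WT replicate 2 alone. The -0.89 thus rests in part on that library. The highest-ranking site of the cluster lay from 22036491 to 22038267, at 82.8% and 79.2% of the WT lists and 85.5% and 86.7% of the dKO lists. It had 1652 and 1777 bp in WT, beside 1630 and 1286 bp in dKO.

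**Figure D5:**
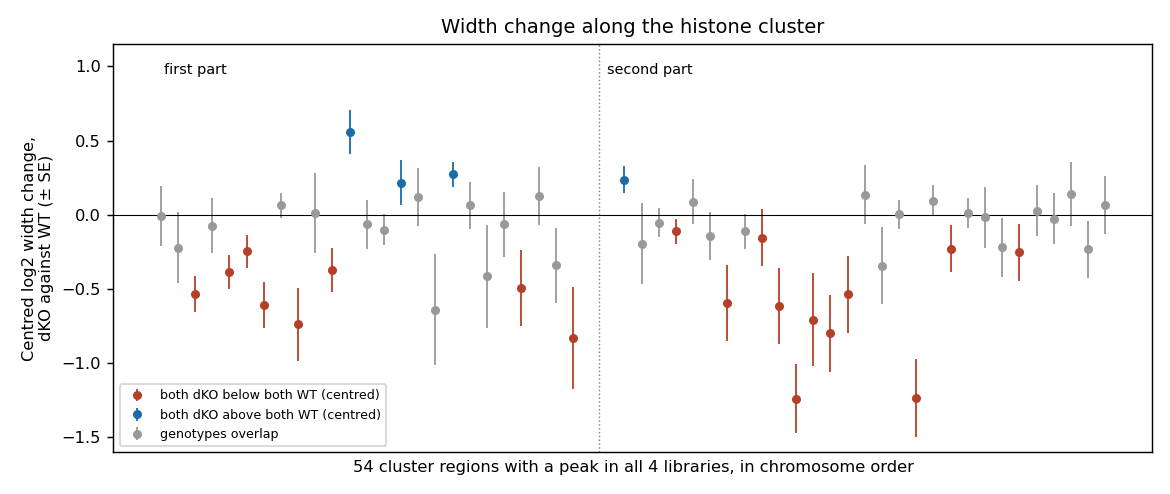
Centred log2 width change (dKO against WT) with its SE from limma for the 54 cluster regions with a peak in all 4 libraries, in chromosome order; red points have both dKO libraries below both WT libraries after centring, blue points the reverse, and grey points overlap. Red points (19, or 35.2%, against 16.3% of all regions) occur in both parts. Blue points number 4 (7.41%, against 23.7% of all regions), and none of the 54 passed the adjusted threshold.

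By run, the bases under peaks were lower on average in dKO in 10 of 11. These sums are not centred: without centring 80.0% of all regions were below 0, and the rest of chromosome 13 changed by -10.6%, so the count is no result about the cluster. The opening run of the first part had 9402 and 10455 bp in WT, beside 7514 and 5921 bp in dKO, a change of -32.3% (exact permutation p = 0.33). The opening run of the second part, which counts the region at its border whole, had 19126 and 18874 bp in WT. In dKO that run had 15661 and 13661 bp, a change of -22.8% (exact permutation p = 0.33). The closing run of the second part had 8169 and 8261 bp in WT, beside 7222 and 6932 bp in dKO, a change of -13.9%. In the closing run of the first part the genotypes overlapped, with 10219 and 10457 bp in WT, beside 10324 and 7573 bp in dKO, so that the lower dKO mean came from replicate 2. The exception was the single region from 22009872 to 22011110, 33.9% higher in dKO. These sums follow how much was called in each library, and 23 of the 54 regions in all 4 libraries (42.6%, against 20.1% of all regions) were split into more than 1 peak in at least 1 library.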

How the data were processed

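H3K4me3 ChIP-seq peak lists of 4 libraries were used, 2 per genotype; 4 input libraries were not analysed here. Per the submitters' processing notes, the authors used MACS2 2.1.1.20160309, BWA 0.7.12-r1039 and bedtools, with SAMtools, Picard 2.6.0 and R 2.14.0, on build mm9. The role of each tool, the thresholds, the use of input and the handling of reads that match several near-identical histone genes are not given in the sources used here. The deposited columns hold peak positions in bp and a score, whose scale the authors do not name and which served only to rank peaks within a list. Lists carry no counts, so depth is unknown and no interval was attached.

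Computation used limma 3.58.1 (R 4.3.3, variance trend), scipy 1.17.1, numpy 2.4.6, pandas 2.3.3 and matplotlib 3.10.9 in Python 3.11.15; the limma fit was tested on simulated data. Width is the sum of base pairs under peaks per region. The rest of chromosome 13 spans 116 Mb between its outermost peaks, less the cluster. The members and lists were chosen with earlier results of these data known. Named regions are the 4 widest, the 4 narrowest, the 4 with the largest change each way, those in a single genotype, any past the threshold, and those of highest and lowest score rank. Named promoters are the earliest gene of each histone family. Same-numbered replicates were not paired (correlation of their deviations -0.059 over 14943 regions). Alternatives changed the lists, the joining of peaks, centring, the variance trend, the block, the comparator and the libraries included.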

Additional observations from a re-analysis of the deposited data

How the results depend on the processing

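The overlap rule as planned could not change a region, and was replaced, after the data were seen, by joining only peaks that overlap by 50% of the shorter (55 regions in all libraries); leaving libraries out of the presence counts was also added then. The difference in the number of cluster peaks, -2, became -14 without peaks under 500 bp, 0.5 after merging within 1000 bp and 3 at equal list length, and ranged from -6 to 2 when 1 library was dropped. Relative to the rest of chromosome 13 the log2 number, 0.08, was -0.33 without peaks under 500 bp. With peaks merged, the log2 ratio of median width to the rest was 0.16 and the median width change 0.015. Regions in all libraries fell to 28 without peaks under 500 bp, which leaves 5 only in WT. With a library left out, regions only in WT numbered 0 to 5 and only in dKO 0 to 2. The shares over all regions are not at hand for these settings, so these counts are no result about the cluster. With the replicate number as a block, 0 cluster regions were called, the median stayed at -0.13 and the lowest adjusted p was 0.216 (limma); the block changed no call. No alternative called a cluster region (lowest adjusted p from 0.0616 to 0.816; a lone library is assumed to vary like the other pair). The 16 named width changes had 182 alternative values, of which 171 held their direction and 11 turned sign. Without centring 21870517 was -0.077 and 21947538 was -0.13. After merging, 22135040 was 0.12, 23621737 was 0.020 and 23625590 was 0.076. With 1 library dropped, 21947538 ranged from -0.094 to 0.12, 22036491 from -0.21 to 0.0066, 22120629 from -0.87 to 0.034, 23618385 from -0.43 to 0.034 and 23621737 from -0.15 to 0.041. The causes were not tested. Unknown depth limits every width.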
